A study of Mus musculus with 2 samples.

Results

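Zeb1, Zeb2, Snai1 and Snai2 are the 4 genes described here, chosen by name as the Zeb and Snail repressors among the 27514 genes that both libraries measured. Single cells were taken from the coronal suture, the fibrous joint between the frontal and parietal bones, of wild-type C57/BL6 mouse embryos at E15.5 and E17.5, and messenger RNA was counted as unique molecular identifiers (UMIs). The E15.5 library came from 10 pooled sutures dissociated in collagenase II with dispase and passed through a kit that removes dead cells, and the E17.5 library came from 16 sutures of 2 litters, digested in collagenase IV over 3 batches before a FACS sort. Each stage has 1 deposited matrix, called a library here, although the E17.5 matrix joins the separately prepared libraries of its batches. Stage, embryos, enzyme, digestion time, sorting, sequencing site (Los Angeles for E15.5, Oxford for E17.5) and counting differed together and cannot be told apart. As for counting, the E15.5 header names another Cell Ranger version than the study's methods. The gene lists hold 31053 and 27998 genes. The deposited labels covered 5335 cells with 48607817 UMIs at E15.5 and 6830 cells with 92585034 UMIs at E17.5, in 15 clusters of 3 regions: ectocranial (EC1 to EC4 and LIG), osteogenic (OG1 to OG4 and the proliferating PO1 and PO2) and meningeal (MG1 to MG4).

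Snail and Zeb proteins are zinc finger transcription factors that bind E-box sequences and recruit corepressors. They are best known for repressing E-cadherin and other epithelial genes when epithelial cells become mesenchymal, and for their roles in the neural crest, which forms the frontal bone. Zeb2, also known as Sip1, additionally binds activated Smads, the carriers of BMP and TGF-beta signals, while Snai1 is a short-lived protein marked for degradation by Gsk3b and Btrc, so that mRNA need not follow protein.

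In GENCODE M21 on GRCm38, the mouse build that the files use as mm10, Zeb2 (ENSMUSG00000026872) lies at chr2:44983632-45117395 on the minus strand. Snai1 (ENSMUSG00000042821) lies at chr2:167538195-167542814 and Snai2 (ENSMUSG00000022676) at chr16:14705852-14709385, both on the plus strand. Zeb1 and Zeb2 are long genes, of 183608 and 133764 bases, against 4620 and 3534 bases for Snai1 and Snai2. The antisense gene Zeb2os lies inside Zeb2 on the opposite strand and had 431 and 816 UMIs in the labelled cells of the E15.5 and E17.5 libraries. The study's methods give default Cell Ranger settings, under which reads are counted by strand, so that Zeb2 and Zeb2os were counted apart.

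The E-box that these repressors bind most often, CACCTG or on the other strand CAGGTG, was looked for in the 250 bases before the transcription start, in RefSeq promoters of GRCm38.p6. It was present in 19.4% of 27025 genes. Of the 27 epithelial genes of the list used below, 16 had an entry, and Cdh1 was among those without one. The motif was held by 12 of these 16, by 0 of 8 mesenchymal genes and by 4 of 7 bone genes. The lists were chosen and not drawn at random from all genes, so these shares only describe them. The windows of Crb3 (a polarity protein of epithelia, chr17:57061951-57062200, plus strand), Epcam (an epithelial adhesion molecule, chr17:87635729-87635978, plus strand) and Vdr (the vitamin D receptor, chr15:97908297-97908546, minus strand) are printed because they show the motif in genes whose levels are given later. The capitals mark the motif, which begins 118, 63 and 7 bases before the start in Crb3, 187 and 19 bases before it in Epcam and 27 bases before it in Vdr. A match describes the letters and is not a measured binding site.
Crb3: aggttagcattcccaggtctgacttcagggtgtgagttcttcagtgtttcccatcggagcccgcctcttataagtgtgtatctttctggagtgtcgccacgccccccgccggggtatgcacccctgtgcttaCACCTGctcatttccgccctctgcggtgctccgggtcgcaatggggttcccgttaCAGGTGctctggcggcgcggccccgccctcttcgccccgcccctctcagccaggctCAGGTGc
Epcam: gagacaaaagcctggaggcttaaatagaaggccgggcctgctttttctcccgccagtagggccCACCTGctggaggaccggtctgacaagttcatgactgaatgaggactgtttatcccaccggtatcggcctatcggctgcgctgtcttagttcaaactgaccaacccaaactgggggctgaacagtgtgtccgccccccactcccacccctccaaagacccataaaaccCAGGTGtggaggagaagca
Vdr: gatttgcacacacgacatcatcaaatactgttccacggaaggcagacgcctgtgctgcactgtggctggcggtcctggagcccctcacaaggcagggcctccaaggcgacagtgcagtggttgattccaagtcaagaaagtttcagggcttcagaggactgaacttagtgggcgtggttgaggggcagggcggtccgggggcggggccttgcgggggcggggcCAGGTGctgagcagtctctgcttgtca

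The cluster labels were checked against the markers that define them. All 45 marker and cluster pairs lay above the other labelled cells in both libraries, 40 of them at least 2-fold at E15.5 and 41 at E17.5. Since these markers describe the clusters in the same cells, this checks how labels were matched to cells, not the labels themselves. Among the weaker pairs at E15.5 were Lgr5 in MG1 (1.18-fold) and Pthlh in OG1 (1.56-fold). At E15.5, MG1 had 28 cells and PO2 had 35, so their values are imprecise. Neuronal markers at E15.5 summed to 671 CPM in OG2, 401 in PO2, 385 in PO1 and 188 in OG1, against at most 85.2 CPM in the other 11 clusters, and in OG2 the gene Stmn2 alone was at 668 CPM, with a UMI in 59.2% of cells. Of the 6 neuronal markers, 3 had no UMI in the labelled cells at E15.5. At E17.5 the sums were 22.6 CPM in OG2, 13.6 in PO2, 20.8 in PO1 and 20.7 in OG1, and OG4 was highest at 105 CPM. Sp7, the osteoblast transcription factor, was at 4.14 CPM in OG2, 1.96 in PO1 and 10.3 in PO2 at E15.5, against 172, 179.9 and 156 CPM at E17.5, so that these osteogenic labels had little Sp7 in the first library. OG1 at E15.5 carried keratinocyte markers at 463 CPM summed and skeletal muscle markers at 539 CPM, the highest of the 15 clusters for both lists. Libraries shared 42 barcode sequences among their labelled cells. The part of these marker levels in the results below was not tested.

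Each level is the number of a gene's UMIs summed over the cells of a cluster, divided by all UMIs of those cells and scaled to counts per 1e6 (CPM), with an exact Poisson 95% interval. These intervals, like all intervals here, cover counting error only, since cells are not replicates. No test was run, as each stage is 1 sample by its labels, and levels under the 3 barcode suffixes of E17.5 are given as the spread within that stage. In place of a test, a gene was called above or below when its level was at least 2-fold, or at most 0.5 times, that of all other labelled cells in both libraries.

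Zeb1 (ENSMUSG00000024238, chr18:5591860-5775467, plus strand) was high in the ectocranial clusters and low in the osteogenic ones. At E15.5 its level was 118 CPM in EC1, 134 in EC2, 141 in EC3, 109.9 in EC4 and 106 in LIG. The osteogenic clusters lay lower, with 69.7 CPM in OG1, 42.7 in OG2, 43.3 in OG3, 27.1 in OG4, 46.0 in PO1 and 22.7 in PO2. The ectocranial and osteogenic clusters did not overlap in level at this stage, and the meningeal clusters, from 37.1 CPM in MG3 to 68.7 in MG1, overlapped the osteogenic range. At E17.5 the ectocranial levels were 62.1 CPM in EC1, 99.3 in EC2, 72.1 in EC3, 65.9 in EC4 and 76.1 in LIG. The osteogenic levels were then 48.1 CPM in OG1, 33.4 in OG2, 37.2 in OG3, 20.4 in OG4, 36.0 in PO1 and 42.6 in PO2, again all below the ectocranial clusters. MG1, MG2, MG3 and MG4 stood at 67.7, 56.8, 28.9 and 33.2 CPM, so that MG1 reached the ectocranial range.

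Summed over regions, Zeb1 was at 44.5 CPM in osteogenic cells against 128 in ectocranial cells at E15.5, a ratio of 0.348 (95% interval 0.317 to 0.381). At E17.5 the levels were 35.7 and 79.7 CPM, with a ratio of 0.448 (0.421 to 0.477). Zeb1 was the 1 member of 4 that was at most 0.5 times the ectocranial level in osteogenic cells of both libraries, a limit that 5.99% of the 12150 genes tested passed. None of the 4 members was at least 2-fold higher in osteogenic cells, against 3% of genes. The median of all genes was 1.03 at E15.5 and 0.992 at E17.5, so the scale itself moved little between these regions. Among neighbours in the order of the 15 cluster levels, the intervals of 1 pair of 14 stood apart in each library. Overlapping intervals do not show that levels are equal, so the order of the other neighbours was not settled.

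**Figure D1:**
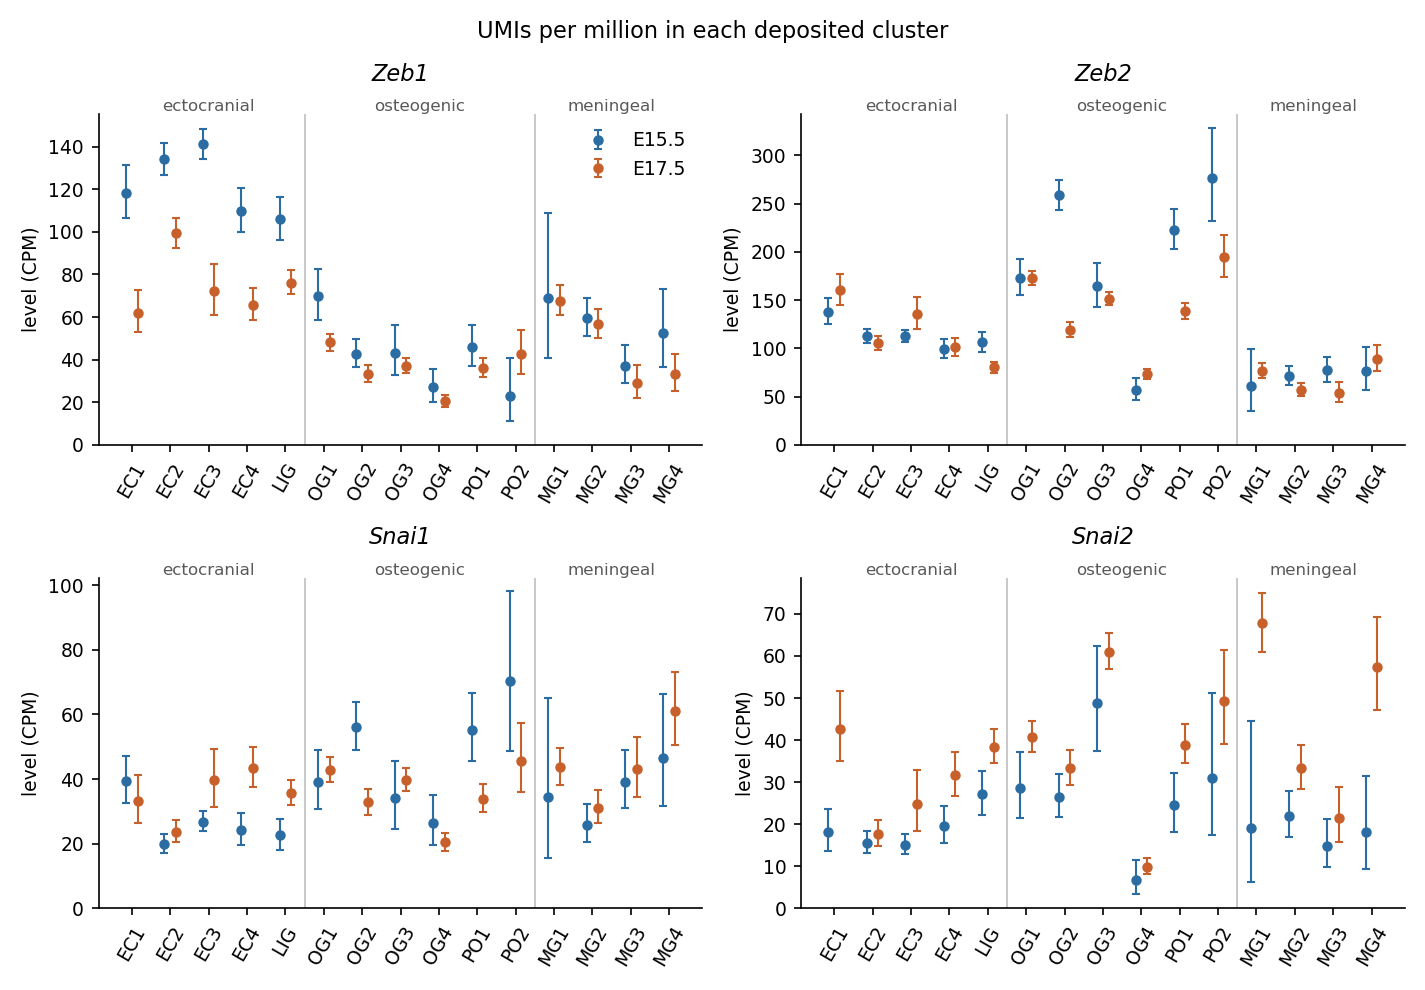
Level of each member in the 15 deposited clusters of the E15.5 and E17.5 libraries, in CPM (vertical axis) with exact Poisson 95% intervals as bars. Zeb1 is highest in ectocranial clusters, with 141 CPM in EC3 at E15.5 and 99.3 CPM in EC2 at E17.5, Zeb2 is highest in PO2 with 277 and 195 CPM, and Snai2 is lowest in OG4 with 6.63 and 9.91 CPM.

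Zeb2 ran differently and was highest in PO2, labelled as proliferating and osteogenic, in both libraries. At E15.5 it reached 277 CPM in PO2, 258 in OG2, 223 in PO1, 173 in OG1 and 165 in OG3, but 56.9 in OG4, which holds the osteoblasts that make bone matrix. At E17.5 the same clusters had 195 CPM in PO2, 119 in OG2, 138 in PO1, 173 in OG1 and 152 in OG3, with 73.1 in OG4. The ectocranial clusters were at 99.7 to 138 CPM at E15.5, below those 5 osteogenic clusters and above the meningeal ones. At E17.5 they were at 80.3 CPM in LIG to 161 CPM in EC1 and overlapped both other regions, with EC1 above OG3, PO1 and OG2. EC1 at E17.5 also had the bone gene levels given above, whose part in this was not tested. The meningeal clusters had 61.1 to 77.3 CPM at E15.5 and 53.9 to 89.0 CPM at E17.5, and the lowest cluster at E17.5 was MG3. OG2 and PO1 were thus higher at E15.5 than at E17.5, while OG1 had the same level at both, and OG2, PO1 and PO2 are the clusters with the neuronal marker and Sp7 levels given above, whose part in this was not tested.

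Osteogenic cells as a whole had 197 CPM of Zeb2 against 113 CPM in ectocranial cells at E15.5, a ratio of 1.75 (1.66 to 1.85), and 135 against 103 CPM at E17.5, a ratio of 1.31 (1.25 to 1.37). Without OG2, PO1 and PO2, the ratios were 1.15 and 1.31, so the E15.5 ratio rested largely on those clusters. Meningeal cells had 73.5 and 68.3 CPM, or 0.653 and 0.661 times the ectocranial level. No member passed the 2-fold limit between meningeal and ectocranial cells in the same direction in both libraries, against 7.65% of genes. Zeb1 passed it at E15.5 alone, with meningeal cells at 0.403 times the ectocranial level, against 0.676 times at E17.5. Zeb2 is also a gene of blood-derived cells, and the summed level of 6 myeloid markers ranged over the 15 clusters from 16.5 to 44.7 CPM in the E15.5 library and from 80.9 to 104 CPM in the later one, with none of the markers at 0. In the unlabelled cells named from those markers the same sum was 6375 CPM and 13666 CPM. Leaving out the labelled cells that held a UMI of a rarer blood, vessel or glial marker gave osteogenic ratios of 1.81 and 1.30 for Zeb2. Only markers seen in at most 5% of labelled cells served for this, which were 25 of the 36 listed markers in the first library and 21 in the second. Cells with a UMI of the more widespread markers alone were kept, so the part of those markers in the Zeb2 ratios was not tested. In MG1 and MG2, chondrocyte markers summed to 1542 and 1410 CPM at E15.5, against 20355 CPM in cells named chondrocytes-like, and the part of this in the low meningeal level was not tested.

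Snai1 was the most evenly spread of the 4 members, its highest and lowest clusters differing by 3.51 times at E15.5 and by 3.00 times at E17.5. At E15.5 it stood at 70.2 CPM in PO2, 56.1 in OG2, 55.3 in PO1 and 46.7 in MG4, and at 19.98 in EC2, the lowest. MG4 led at E17.5 with 61.1 CPM, followed by PO2 at 45.7, MG1 at 43.6 and EC4 at 43.4, and OG4 was lowest at 20.4. No neighbours among the 15 levels had intervals that stood apart, in either library. The osteogenic to ectocranial ratio was 1.86 (1.66 to 2.07) at E15.5 and 1.04 (0.962 to 1.13) at E17.5, so that the higher osteogenic level of the first library was not seen in the second. Without OG2, PO1 and PO2 these ratios were 1.32 and 1.05.

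Snai2, which encodes Slug and is known for its part in neural crest migration, was highest in OG3 at E15.5 with 48.7 CPM (37.4 to 62.3). It had 61.02 CPM in OG3 at E17.5 (56.8 to 65.4), second to MG1 at 67.7 CPM, and 57.4 CPM in MG4. OG4 was the lowest of the 15 clusters in both libraries, at 6.63 CPM from 12 UMIs at E15.5 and 9.91 CPM from 104 UMIs at E17.5. OG4 against OG3, a pair chosen after their values were seen, gave a ratio of 0.136 (0.0668 to 0.255) at E15.5 and 0.162 (0.131 to 0.199) at E17.5. The ratio of Snai2 between osteogenic and ectocranial cells was 1.47 and 1.27, and that between meningeal and ectocranial cells 1.07 and 1.59.

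Over the 60 pairs of a member and a cluster, none was at least 2-fold above the other labelled cells in both libraries, and 1.88% of the pairs of all genes were. At most 0.5 times the other cells were 2 pairs, against 5.8% of all pairs, and both were in OG4: Zeb1 at 0.266 and 0.372, and Snai2 at 0.326 and 0.241. In OG4 alone 15.3% of genes passed that limit. The median gene was at 0.709 and 0.838 times the other cells there, and the bone matrix gene Ibsp alone was at 41200 CPM at E15.5 and 13640 CPM at E17.5 in OG4. Relative to this median, Zeb1 was at 0.376 and 0.443 and Snai2 at 0.459 and 0.287, still past the limit in both libraries. On the same scale Zeb2 was at 0.613 and 0.718 in OG4, and Snai1 at 1.19 and 0.650. In the other 14 clusters the median gene lay between 0.900 and 1.06. OG4 at E15.5 also carried mast cell markers at 326 CPM summed, among them Cma1 at 224 CPM and Cpa3 at 81.8 CPM, and their part in its levels was not tested.

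The ratio of UMIs of 2 members within the same cells does not depend on the depth or on the other genes, and it was compared between clusters without being read as a ratio of molecules. Zeb1 per Zeb2 was 1.14 (1.09 to 1.19) in ectocranial cells at E15.5 and 0.226 (0.205 to 0.249) in osteogenic cells. At E17.5 it was 0.771 (0.728 to 0.817) and 0.264 (0.251 to 0.278). Over the 6 osteogenic clusters it ranged from 0.0821 in PO2 to 0.476 in OG4 at E15.5, and from 0.219 to 0.281 at E17.5, where every osteogenic cluster was below every ectocranial and meningeal one. EC1 had 0.856 in the first library and 0.387 in the second, and EC3 had 1.25 and 0.532, while Sp7 in EC1 was at 2.93 and 110 CPM. Snai2 per Snai1 over all labelled cells was 0.635 in the first library and 1.06 in the second. OG3 stood at 1.43 and 1.54, and OG4 was the lowest cluster in each library at 0.250 and 0.486.

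**Figure D2:**
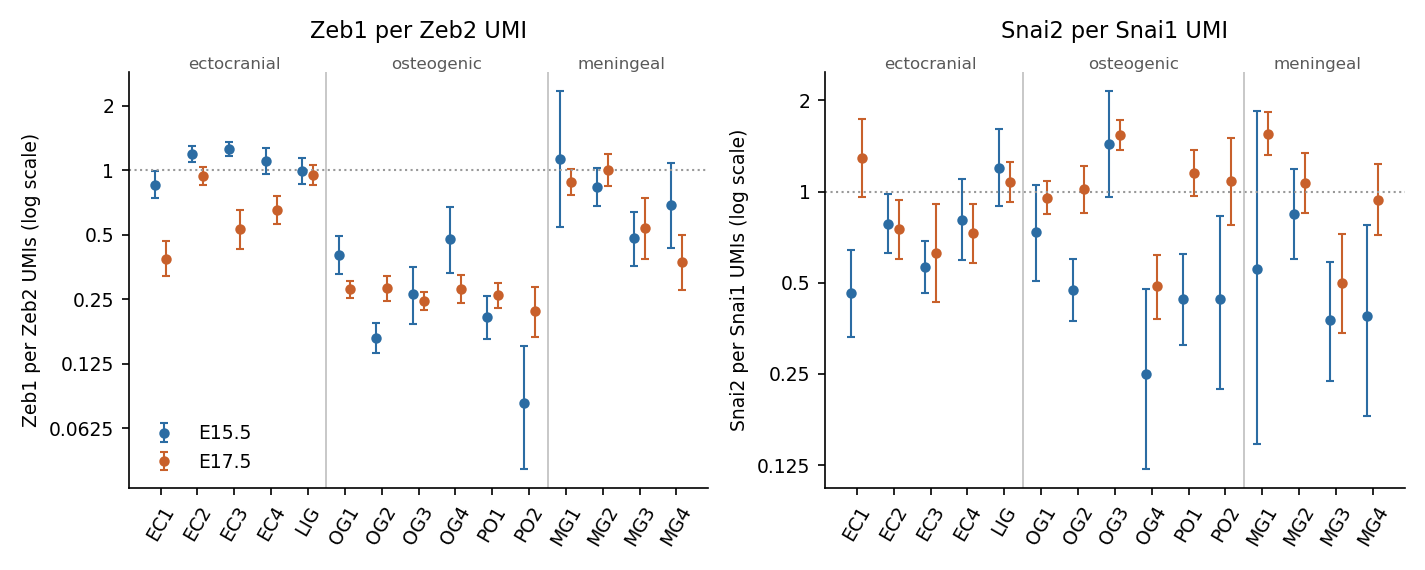
Zeb1 UMIs per Zeb2 UMI and Snai2 UMIs per Snai1 UMI in each cluster and library (log axis), with exact 95% intervals. The 6 osteogenic clusters lie between 0.219 and 0.281 for Zeb1 per Zeb2 at E17.5, and OG4 is lowest for Snai2 per Snai1 with 0.250 and 0.486.

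Between the libraries, Zeb1 was lower and Snai2 higher at E17.5. Over all labelled cells Zeb1 was at 98.9 CPM at E15.5 and 51.0 at E17.5, a ratio of 0.516 (0.495 to 0.537), and Snai2 was at 19.9 and 37.6 CPM, a ratio of 1.90 (1.77 to 2.04). Zeb2 had 128 and 116 CPM, and Snai1 31.3 and 35.5 CPM. The mix of cells also differed, with 3406 of 5335 labelled cells ectocranial in the first library against 2142 of 6830 in the second, so the ratio was also taken within each cluster. Zeb1 was lower at E17.5 with an interval below 1 in 8 clusters, higher in 0, and its interval included 1 in 7, with ratios from 0.511 in EC3 to 1.88 in PO2. Snai2 had an interval above 1 in 9 clusters and below 1 in 0, with ratios from 1.13 in EC2 to 3.55 in MG1.

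Of the 60 pairs of a member and a cluster, 3 were at least 2-fold higher at E17.5, all of Snai2. These were EC1 (18.2 and 42.7 CPM), MG1 (19.1 and 67.7 CPM, from 5 UMIs at E15.5) and MG4 (18.1 and 57.4 CPM, from 12 UMIs at E15.5). EC1 also differed between the libraries in the bone gene levels given above, whose part in this was not tested. Among all genes with at least 10 CPM, 6.32% of gene and cluster pairs were that much higher. Zeb2 in OG2, at 258 and 119 CPM with a ratio of 0.461, was the 1 pair of the members at or below 0.5, as were 5.97% of such pairs of all genes. For Zeb1 and Snai1 no cluster passed either limit. In OG2, PO1 and PO2, where Zeb2 had ratios of 0.461, 0.621 and 0.703, the neuronal markers and Sp7 also differed between the libraries, as given above, and their part in these ratios was not tested.

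**Figure D3:**
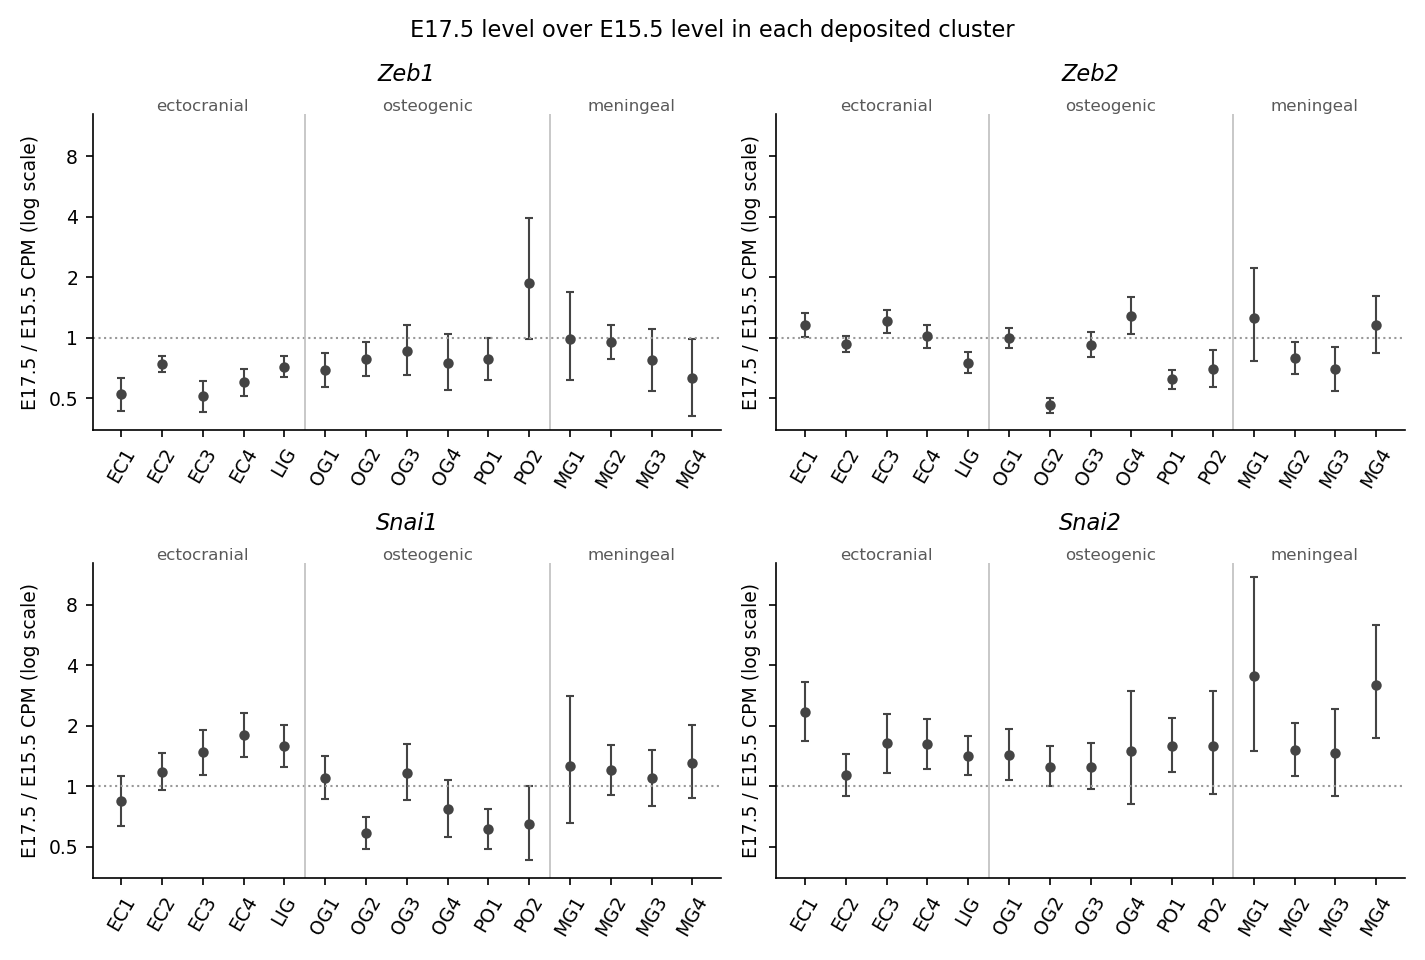
Level at E17.5 divided by the level at E15.5 for each member and cluster (log axis), with exact 95% intervals. Snai2 lies above 1 in all 15 clusters, up to 3.55 in MG1, and Zeb1 lies below 1 in all but PO2, where 11 UMIs at E15.5 give a ratio of 1.88.

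The E17.5 barcodes carry 3 suffixes, and levels under each suffix give the spread within that stage. Between suffixes 1, 2 and 3 the osteogenic to ectocranial ratio ran 0.467, 0.447 and 0.437 for Zeb1, and 1.07, 1.42 and 1.33 for Zeb2. Zeb1 in OG4 was at 19.0, 20.6 and 20.7 CPM under suffixes 1, 2 and 3, and Snai2 in OG4 at 10.4, 9.61 and 10.0 CPM. Zeb1 in ectocranial cells was at 68.8, 81.4 and 83.4 CPM, and in osteogenic cells at 32.2, 36.4 and 36.4 CPM, so the gap between these regions exceeded the spread between suffixes. Zeb2 was at 124, 135 and 140 CPM in osteogenic cells and at 116, 95.04 and 105 CPM in ectocranial cells, with no overlap of these values. Under suffix 1, however, the intervals of the regions overlapped (117 to 132 and 107 to 126 CPM). Snai1 in osteogenic cells was at 44.7, 31.3 and 34.6 CPM, against 32.7, 34.5 and 32.8 CPM in ectocranial cells, and these ranges overlapped. Snai2 in meningeal cells was at 27.7, 57.6 and 46.5 CPM, and suffix 1 held no MG1 cell.

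**Figure D4:**
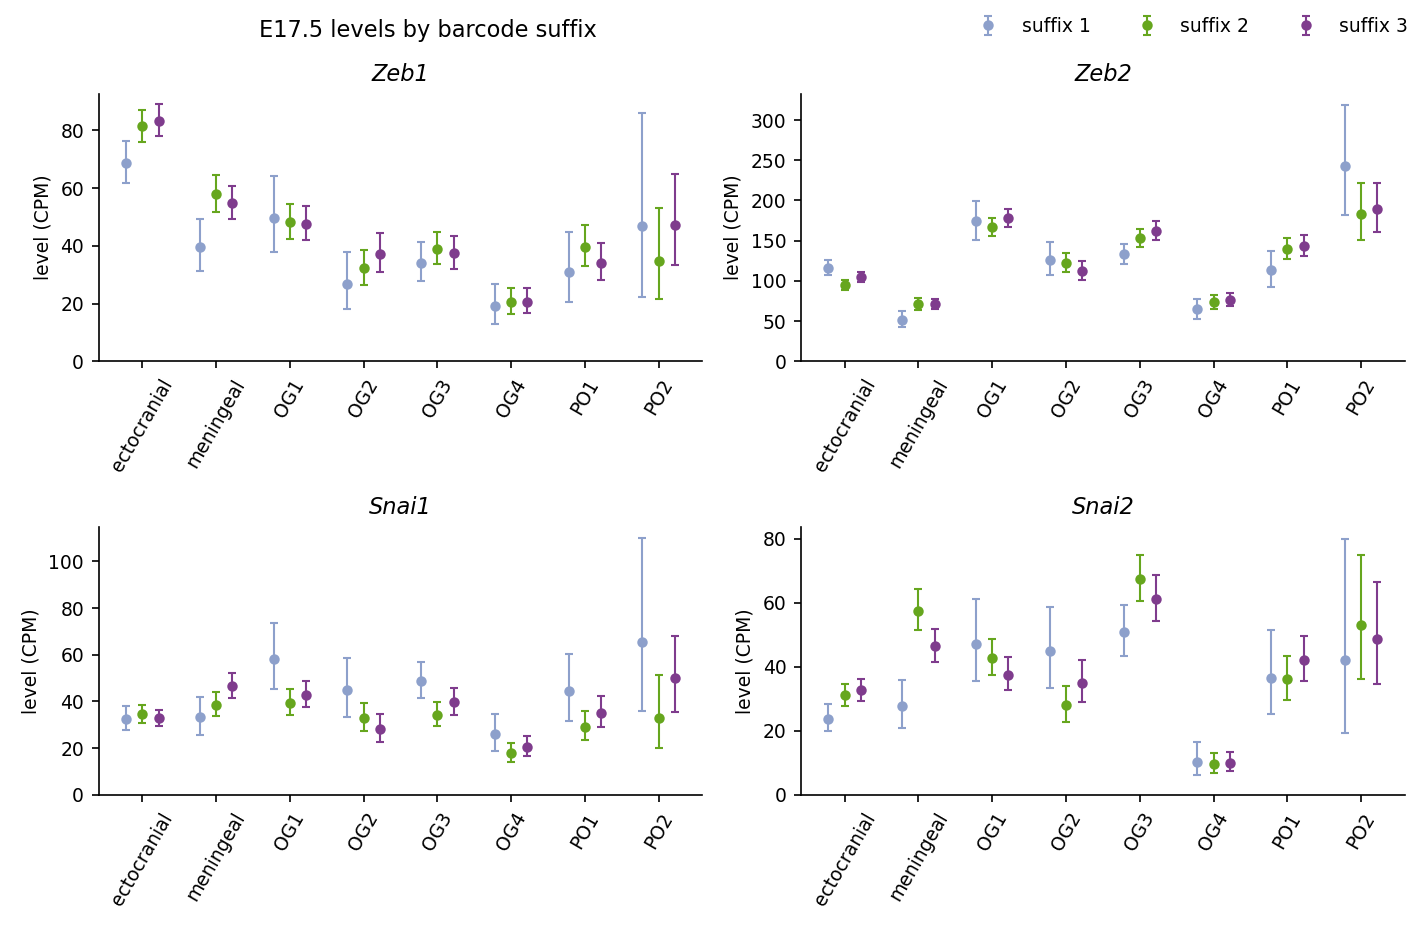
Level of each member at E17.5 under barcode suffixes 1, 2 and 3, in CPM with exact Poisson 95% intervals, for the ectocranial and meningeal regions and the 6 osteogenic clusters. Zeb1 in OG4 stays between 19.0 and 20.7 CPM, while Snai2 in meningeal cells runs from 27.7 to 57.6 CPM.

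Deposited labels did not cover every cell. New clusters were made from the cells without one that passed the study's limits, of which the E15.5 library held 2875 and the E17.5 library 1937, and were named from markers. Chondrocytes-like cells, 962 and 318 of them, had Zeb2 at 5.24 CPM (3.98 to 6.77) and 10.2 CPM (7.01 to 14.3), below every labelled cluster in each library. They had Snai2 at 69.3 and 75.6 CPM, above every labelled cluster. At E15.5 the name covered a cluster of 395 cells led by Ttr and Rlbp1, which had all 6 chondrocyte markers at 2-fold or more. With 20 principal components in place of 30, a cluster of 113 cells led by Ttr, Dct and Rlbp1 was left unnamed there. At E17.5 the name also covered a cluster of 142 cells led by Clu and Prg4. A cluster of 140 cells led by Prg4 was left unnamed at E15.5, so the libraries differ in what the name covers. Pericytes-like cells had Zeb2 at 224 and 277 CPM and Snai1 at 54.0 and 89.4 CPM. Myeloid cells-like cells had Zeb2 at 324 and 261 CPM but Zeb1 at 17.7 and 5.63 CPM, Snai1 at 5.82 and 4.27 CPM and Snai2 at 6.87 and 2.73 CPM, so that Zeb2 stood alone among the members there. Endothelial cells-like cells, 46 and 119 in number, showed the reverse for the Zeb pair, with Zeb1 at 95.3 and 114 CPM and Zeb2 at 7.48 and 41.1 CPM. Glia-like cells, found at E17.5 as 32 cells, had Zeb2 at 310.2 CPM (253 to 376) and Snai1 at 2.98 CPM from 1 UMI. These names rest on clusters rebuilt here, and types under 50 cells are imprecise.

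**Figure D5:**
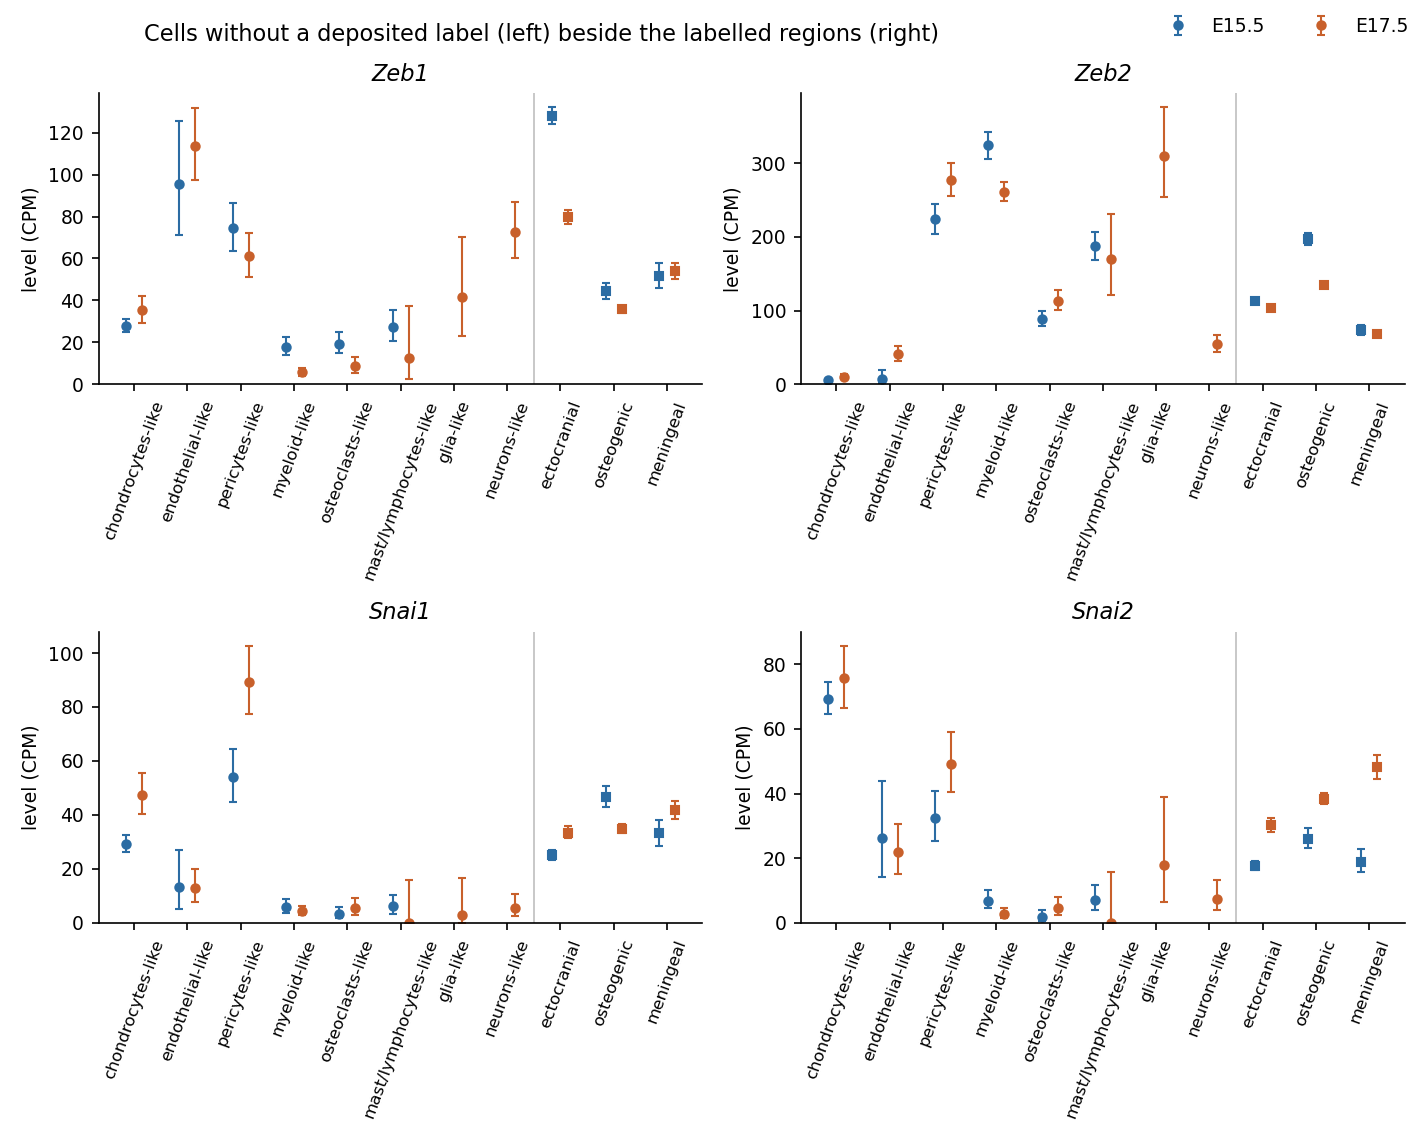
Level of each member in unlabelled cells named from markers (left, circles) and in the labelled regions (right, squares) of both libraries, in CPM with exact Poisson 95% intervals. Chondrocytes-like cells are the lowest named type for Zeb2 in both libraries, with 5.24 and 10.2 CPM, and myeloid cells-like cells are at 5.82 and 4.27 CPM for Snai1.

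Shares of cells with a UMI were read after each cell was thinned to 3000 UMIs, since labelled cells had a median depth of 8510 UMIs in the first library and of 12301.5 in the second. Zeb1 was detected in 23.9% and 14.8% of labelled cells after thinning (51.0% and 44.6% before), Zeb2 in 30.3% and 27.4% (59.1% and 67.4%), Snai1 in 8.29% and 10.0% (22.2% and 33.0%) and Snai2 in 5.57% and 11.0% (14.8% and 34.4%). As a measure of free RNA in the droplets, the myeloid cells-like cells, with median depths of 8803 and 9286.5 UMIs, had Zeb1 in 2.88% and 1.39%, Snai1 in 0.785% and 1.57% and Snai2 in 1.31% and 0.348%. Snai2 in OG4 was at 0.568% and 3.23%, and the CPM of Snai2 at E15.5 was 6.63 in OG4 and 6.87 in myeloid cells-like cells. The E15.5 level of Snai2 in OG4 thus cannot be told from background and is not read as expression. For Zeb1 at E15.5, the interval in PO2 (22.7 CPM, 11.3 to 40.7) also included the myeloid cells-like level given above. After thinning, a UMI of none of the members was found in 45.6% and 50.5% of labelled cells, and UMIs of all 4 in 0 and 1 cells. Zeb1 and Zeb2 were found together in 362 cells at E15.5, where their shares within clusters give 362.2, and in 277 at E17.5, where they give 277.8. Snai1 and Snai2 were found together in 27 cells against 25.8 at E15.5 and in 111 against 81.8 at E17.5.

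Genes with profiles over the clusters like those of the members were then sought. For each member the 5 genes with the highest Pearson r of log2(CPM + 1) over the 15 clusters, the lower of the 2 libraries counting, were taken from 7133 genes with at least 10 CPM. The r values are descriptions, since the clusters of a library share depth and cell handling. For Zeb1 these were Angptl1 (r = 0.92 and 0.91), Apbb2, Zfp462, Fbln2 (fibulin 2, an extracellular matrix protein) and Fibin. For Zeb2 they were Sarnp (0.87 and 0.80), Glud1, Cops2, Csnk1d and Rngtt. For Snai1 they were C1qtnf12 (0.83 and 0.73), Tia1, Tbl1xr1, Tln2 and Tmem47, and for Snai2 Pdgfrb (a receptor for platelet-derived growth factor, 0.78 and 0.80), Polr2m, Tmem47, Limd2 and Ccdc112. Among the members themselves, Snai1 and Snai2 had r of 0.36 and 0.73, Zeb2 and Snai2 0.66 and 0.36, and Zeb1 and Snai1 -0.63 and 0.00.

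The pathway lists were read by the same limits, with 20.7% of the 12150 genes having a cluster at least 2-fold above and 31.8% one at most 0.5 times the other cells. Of the 22 corepressors and chromatin partners, 3 had a cluster above and 2 a cluster below. Their median osteogenic to ectocranial ratio was 1.25 and 1.20 in the same order of libraries, and of the corepressors Ctbp1 and Ctbp2, which Zeb proteins bind, Ctbp1 (142 and 169.7 CPM) had 1.08 and 1.01 and Ctbp2 (23.4 and 25.1 CPM) had 2.76 and 1.99. Of the 12 genes of Snail and Zeb turnover, 1 (Pak1) had a cluster above and 2 a cluster below, with a median ratio of 0.877 and 0.856, and Gsk3b was at 107 and 79.6 CPM. Of the 8 Smads, 1 (Smad9) had a cluster above and 1 a cluster below. Smad9 was at 1.91 and 4.39 CPM and had osteogenic ratios of 1.75 and 3.32.

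Most of the listed epithelial genes were near the limit of detection, but Krt19 was at 26.5 and 4.33 CPM and Cdh3 at 6.62 and 21.1 CPM. Of the 27 on the list, 6 had enough UMIs to be tested, and the median level over the list was 0.226 CPM at E15.5 and 0.0972 CPM at E17.5. Cdh1, which encodes E-cadherin, had 22 and 15 UMIs in all labelled cells, Epcam had 33 and 13, and Crb3 had 2 and 0. Of the 6 tested genes, 4 had a cluster above, 6 a cluster below and 2 (Krt19 and Cldn3) were at most 0.5 times the ectocranial level in osteogenic cells. The 13 mesenchymal genes had median levels of 256 and 249 CPM, and 3 had a cluster above and 6 a cluster below. Cdh2, the N-cadherin of mesenchymal cells, had osteogenic ratios of 2.23 and 1.69. Of the relatives, Snai3 had 0 and 0 UMIs, Scrt1 43 and 1 and Scrt2 1 and 1.

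Of the 8 bone genes, some of which the study used to define the osteogenic clusters, 8 were at least 2-fold higher in osteogenic than ectocranial cells, with median ratios of 35.5 and 9.39, beside the Zeb1 ratios of 0.348 and 0.448. Vdr, whose upstream window is printed above, was at 2.41 and 3.63 CPM in all labelled cells. It was at 29.4 and 12.3 CPM in OG3 and at 30.4 and 9.05 CPM in OG4, the same clusters in which Snai2 was at 48.7 and 61.02 CPM and at 6.63 and 9.91 CPM.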

How the data were processed

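Per the study's methods, the authors counted reads with Cell Ranger on mm10 and deposited raw UMI counts per gene and cell, 1 matrix per stage, with a table of cluster labels from Seurat 3.2.0. Cell Ranger 3.1.0 is the version in the E15.5 file header. Of 5340 labelled E15.5 cells 5 were not in the matrix, and UMI totals of the others differed from those of the label table (r = 0.997), whereas the E17.5 totals were equal. Counts of labelled cells were summed per cluster and library with Python 3.11.15, numpy 2.4.6 and scipy 1.17.1, giving CPM, exact Poisson intervals and binomial intervals of ratios; no p-value was computed, since each stage is 1 sample by its labels, and a test over the 3 E17.5 suffixes was not run. Genes needed 50 UMIs in each library to enter the background of 12150 genes. Shares were Clopper-Pearson intervals after thinning to 3000 UMIs, which left out 160 E15.5 cells. The floor for 0 counts was 3 UMIs. Unlabelled cells needed 1000 UMIs, 1000 genes, at most 7.5% mitochondrial and 3% haemoglobin UMIs, and were clustered with scanpy 1.11.5 (2000 variable genes, 30 principal components, Leiden resolution 1). A cluster was named from at least 4 markers of a type at 2-fold or more, or 3 with 1 of them among its 10 leading genes, unless another type led those genes; this rule was set after the clusters were seen. Doublet scores in the top 6% (495 and 576 cells) were left out in an alternative only. The study prepared E17.5 libraries separately in 3 batches; which of the 3 suffixes is which batch is not given in the sources used here. The code was tested on simulated data. The members, the lists and the alternatives were chosen with earlier results of these data known. Named genes were the members, list genes and markers where a result turned on them, and the 5 genes most alike in profile to each member.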

Additional observations from a re-analysis of the deposited data

Results flagged for a closer look

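In 3 of 72 comparisons of a member with the other labelled cells, the intervals of the 2 libraries lay on opposite sides of 1. The difference was not tested in any of them, as each stage is 1 sample by its labels. Zeb2 in EC3 was at 0.847 times those cells at E15.5 and at 1.17 times at E17.5. Snai1 in EC4 was at 0.758 times at E15.5 and at 1.24 times at E17.5. Snai2 in OG2 was at 1.38 times at E15.5 and at 0.875 times at E17.5. OG2 is the cluster with the highest neuronal marker sum at E15.5, nearly all of it Stmn2.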

How the results depend on the processing

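No paired analysis was possible because the stages, with 1 labelled sample each, share fewer than 2 replicate numbers. Of 500 values recomputed under other settings for 54 results, 422 stayed within the counting interval or count allowed and 78 moved. No ratio past the 2-fold limit changed sides of 1, and 3 ratios within that limit did. These were Snai1 in OG4 at E15.5 (1.19 by the median of ratios), Snai1 in osteogenic cells at E17.5 (0.908 with suffix 2 alone) and Snai2 in meningeal cells at E15.5 (0.965 with clusters weighted equally). The pairs of a member and a cluster at least 2-fold above went from 0 to 1 with E17.5 suffix 1 alone (Zeb2 in PO2) and to 3 at a limit of 1.5. The pairs at most 0.5 times went from 2 to 4 after thinning, with Zeb2 in MG2 and MG3 added, and to 10 at a limit of 1.5. The members apart in meningeal and ectocranial cells went from 0 to 1 at a limit of 1.5. The members 2-fold apart between the libraries went from 0 to 1 after thinning (Snai2, 2.03) and with the mean CPM of single cells (Snai2, 2.01), and to 1 with E17.5 suffix 1 alone (Zeb1, 0.459) and with marker cells left out (Zeb1, just under 0.5; 25.5% and 16.9% of labelled cells), and to 2 at a limit of 1.5; the cause was not tested. Snai2 in OG4 at E15.5, with 12 UMIs before thinning and a level not told from background, went from 0.326 to 0.0922 after thinning. Leaving out OG2, PO1 and PO2, an alternative chosen after seeing the data, took the E15.5 osteogenic ratio of Zeb2 from 1.75 to 1.15. Of the 5 genes most like each member, 2, 1, 1 and 0 for Zeb1, Zeb2, Snai1 and Snai2 stayed with Spearman's rho, and 4, 4, 1 and 2 with at least 30 CPM. Depth limits Snai2 most, with 5 to 162 UMIs per cluster at E15.5.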
